A study of Arabidopsis thaliana with 6 samples.

Results

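*XTH19* (AT4G30290), *XTH22* (AT5G57560) and *XTH25* (AT5G57550) encode xyloglucan endotransglucosylase/hydrolases (XTHs) of *Arabidopsis thaliana*. They are 3 of the 454 genes in the deposited table of mRNA levels, which also holds *XTH17* (AT1G65310), so that 4 of the 33 *XTH* genes named in RefSeq were measured here. The 3 genes were chosen by their levels in these same 6 libraries, as family members that took different directions in the mutant lines. Their levels and ratios are therefore given as a description, without a test. *XTH17* and the genes of other lists carry one, though the members and lists were chosen with earlier results of these data known. The table itself holds genes that the study had called changed, so these p-values are not free of selection either.

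The study examined SAP18, a subunit of the nuclear ASAP complex that binds exon junctions and also contains SR45, for its part in splicing and gene expression. RNA was taken from whole seedlings grown for 11 days on MS medium at 22 °C under a long-day photoperiod by the series design, with 2 libraries labelled *sap18*, 2 labelled *sr45* and 2 of the wild type Col-0. By the study's methods each mutant is a single T-DNA insertion line. The titles and genotype field of the first pair name *sap18sr45*, whereas their descriptions and the series design name *sap18*. A legend in the study's supplement gives the seedlings of these lines an age 1 day younger.

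The *SAP18* level went against a loss of *SAP18* mRNA. It was 936 and 900 cRPKM in the libraries labelled *sap18*, 75.6 and 94.3 cRPKM in *sr45* and 76.6 and 83.7 cRPKM in Col-0. The unit cRPKM counts reads per mappable kilobase and scales them to the reads of the library, so that levels can be set side by side between genes. *SR45* was at 20.9 and 23.1 cRPKM in the libraries labelled *sap18*, at 5.39 and 4.98 cRPKM in *sr45* and at 23.1 and 19.4 cRPKM in Col-0. The level of *SR45* thus stood apart only in the libraries labelled *sr45*, and what the line labelled *sap18* lacks cannot be told from these 2 mRNAs. In what follows, *sap18* and the word mutant refer to the labels only and do not state a loss of SAP18. Median levels over the 454 genes lay between 12.1 and 12.7 cRPKM in *sap18*, between 9.06 and 9.73 cRPKM in *sr45* and between 14.1 and 14.5 cRPKM in Col-0. The table lists genes that the study had called changed, and the read depth behind each value is unknown. The sources leave unsaid whether seedlings of a genotype were grown apart for each library, and the p-values cover no more than the variation from library to library, which may be technical. In whole seedlings, fewer cells of a type and less RNA per cell cannot be told apart.

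XTH enzymes act in the cell wall on xyloglucan, the hemicellulose that coats and links cellulose microfibrils. They cut a xyloglucan chain, keep the new end bound and join it to another chain or, in some members, to water, and by this they take part in loosening and rebuilding the wall during growth. *XTH22*, also named *TCH4*, is known as a touch-induced gene whose mRNA also responds to brassinosteroids, auxin and temperature, and *XTH17* and *XTH19* belong to a subgroup with mRNA mainly in roots.

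The active site, which defines the family, is shown for the 4 measured genes because it is the stretch that all of them share. It was read from the coding sequences of RefSeq on TAIR10.1, 5′ to 3′ on the coding strand, with the codons of the catalytic glutamates in capitals. The first is known as the nucleophile and the second as the acid/base residue.
XTH19: gatGAGattgatttcGAGtttttgggg
XTH22: gacGAGatagatttcGAGtttttaggg
XTH25: gacGAAatcgatttcGAGtttcttggt
XTH17: gatGAGatcgatttcGAGttcttggga
Against *XTH19*, 3 of the 27 bases differed in *XTH22*, 6 in *XTH25* and 3 in *XTH17*, and in each the number of changed residues was 0. A looser form of the motif, which leaves some of its positions free, was found in 31 of the 33 XTH proteins.

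Outside this motif the 3 members were less alike. *XTH19* encodes 277 residues and was 91.3% identical to *XTH18*, 89.9% to *XTH17* and 83.4% to *XTH20*, against 70.0% to *XTH22*. *XTH22* encodes 284 residues, was closest to *XTH23* at 81.7%, and shared 65.9% with *XTH25*. *XTH25*, also of 284 residues, was closest to *XTH24* at 67.7%. The median identity to the other 32 family members was 47.7% for *XTH19*, 48.2% for *XTH22* and 48.4% for *XTH25*. Of the measured genes only *XTH19* and *XTH17* thus form a close pair, and *XTH22* shared more residues with *XTH19* than with its neighbour *XTH25*, as the plot of identities shows.

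**Figure D1:**
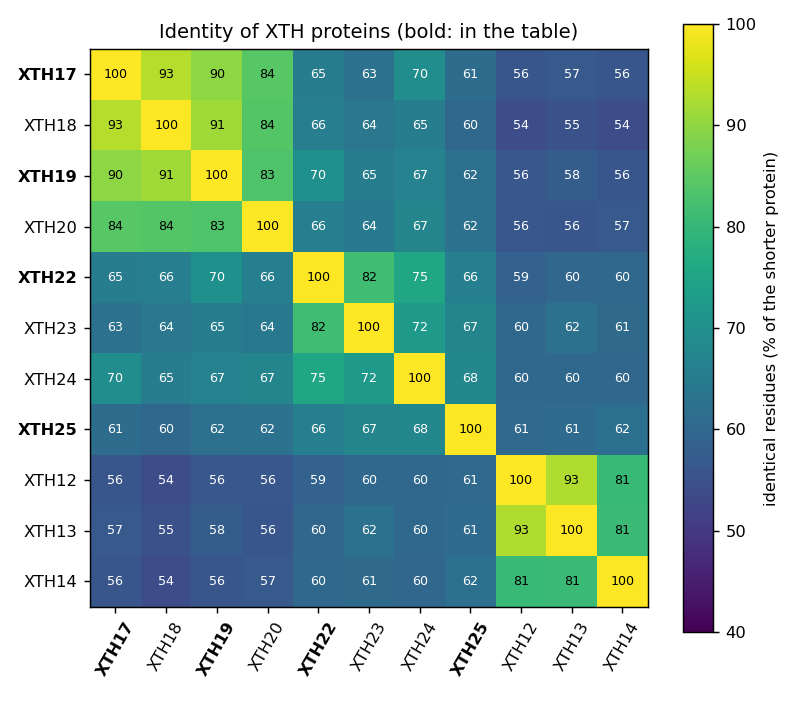
Matrix of the percent of identical residues, relative to the shorter protein, between the 4 XTH proteins measured here (bold) and other family members named on both axes, from global alignments of RefSeq proteins. XTH19 and XTH17 share 89.9% of positions, while XTH22 and XTH25 share 65.9%.

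*XTH22* and *XTH25* are neighbours on chromosome 5. On TAIR10.1, *XTH22* lies on the minus strand at chr5:23307006-23308680 with 2 exons and *XTH25* on the same strand at chr5:23304782-23306440 with 3 exons, 565 bp apart. *XTH13* follows 686 bp beyond *XTH25*, and *XTH12* is the next family member on that side. *XTH19* lies at chr4:14828712-14830224 on the minus strand with 3 exons, 1500 bp from *XTH18* and 8116 bp from *XTH24*. *XTH17* stands without an adjacent family member at chr1:24257054-24258506 on the plus strand. In all, 10 of the 33 *XTH* genes adjoin another one. *XTH12*, *XTH13*, *XTH18* and *XTH24* are outside the 454 genes and were not analysed here.

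**Figure D2:**
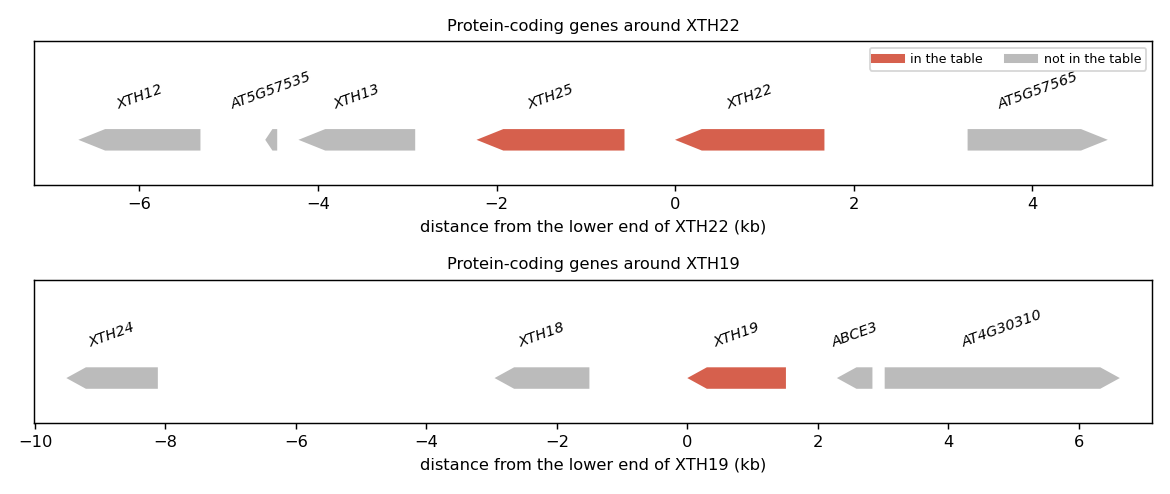
Gene maps around XTH19 and around XTH22 and XTH25, with distance in kilobases from the lower coordinate of XTH22 or XTH19 on the horizontal axis and arrows drawn to scale in the direction of transcription. Genes in the table of 454 are red and others grey. XTH22 and XTH25 stand 565 bp apart on one strand.

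The 250 bases before each start are printed for this adjacent pair, whose levels are set beside each other further on. Each runs 5′ to 3′ on the minus strand of TAIR10.1, chr5:23308681-23308930 for *XTH22* and chr5:23306441-23306690 for *XTH25*, with matches to the searched motifs in capitals.
XTH22: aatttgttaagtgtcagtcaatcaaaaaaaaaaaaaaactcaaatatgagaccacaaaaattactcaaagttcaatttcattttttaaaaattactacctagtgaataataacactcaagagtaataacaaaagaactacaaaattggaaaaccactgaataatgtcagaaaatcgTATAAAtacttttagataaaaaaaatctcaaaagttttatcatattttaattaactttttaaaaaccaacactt
XTH25: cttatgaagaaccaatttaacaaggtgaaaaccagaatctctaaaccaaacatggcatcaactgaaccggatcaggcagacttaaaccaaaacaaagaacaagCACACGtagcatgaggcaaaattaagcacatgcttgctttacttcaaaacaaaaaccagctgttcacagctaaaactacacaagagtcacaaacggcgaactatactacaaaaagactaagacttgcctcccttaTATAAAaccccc
Both strands were searched for 6 motifs, whose matches in these windows did not overlap. The *XTH22* window held TATAAA once, 74 bases before the start. The *XTH25* window held TATAAA once, 12 bases before the start, and CGTGTG once, read as CACACG on this strand. Of 27443 promoter windows of this length, 47.3% held TATAAA, 5.37% CGTGTG, 6.49% CACGTG, 1.57% CGTGCG, 10.9% TGTCTC and 2.59% CGCGTT. None of the 6 motifs was found in the window of *XTH19*, and the letters of a match or its absence say nothing of a factor. The GC content was 22% for *XTH22*, 39.2% for *XTH25* and 40.8% for *XTH19*.

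*XTH19* was higher in both mutants. Its level was 10.4 and 9.48 cRPKM in the libraries labelled *sap18*, 11.3 and 11.4 cRPKM in *sr45* and 2.22 and 1.44 cRPKM in Col-0. The ratio of means was 5.44 for *sap18* over Col-0, with single ratios of libraries between 4.28 and 7.22, and 6.19 for *sr45* over Col-0, with single ratios between 5.08 and 7.91. The mutants lay close together, with *sap18* at 0.878 of *sr45*, a gap of 1.38 cRPKM in the means beside SDs of 0.621 cRPKM in *sap18* and 0.0685 cRPKM in *sr45* (n = 2 each), and their order was turned round when the mutants were rescaled. On the log2(cRPKM + 1) scale, which understates the change of a gene as low as this in Col-0, the differences were 1.96 for *sap18* and 2.14 for *sr45*. Among the 454 genes *XTH19* stood 433rd and 448th from the top in Col-0, and it took ranks 252 and 269 in *sap18* and 196 and 193 in *sr45*.

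*XTH22* was higher in *sap18* and lower in *sr45*. It was the most abundant of the 4 genes in both Col-0 and *sap18*, at 83.8 and 92.5 cRPKM in the libraries labelled *sap18*, 23.4 and 22.3 cRPKM in *sr45* and 36.0 and 31.6 cRPKM in Col-0. The ratio of means was 2.61 for *sap18* over Col-0, with single ratios between 2.33 and 2.93, and 0.676 for *sr45* over Col-0, with single ratios between 0.619 and 0.741. The libraries labelled *sap18* thus stood 3.86-fold above *sr45*, more than either mutant stood from Col-0. Col-0 lay between the mutants, and its distance from *sr45*, 11.0 cRPKM in the means, exceeded the SDs of 0.785 cRPKM in *sr45* and 3.13 cRPKM in Col-0 (n = 2 each). *XTH22* ranked 31 and 29 in *sap18*, 105 and 114 in *sr45* and 110 and 114 in Col-0.

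*XTH25* was lower in both mutants, and most so in *sr45*. It was at 4.21 and 3.95 cRPKM in the libraries labelled *sap18*, 1.40 and 0.931 cRPKM in *sr45* and 6.15 and 6.90 cRPKM in Col-0. The mean in *sr45* was 5.61-fold below Col-0, with single ratios between 0.135 and 0.227, and the mean in *sap18* was 1.60-fold below it, with single ratios between 0.573 and 0.684. On the log2(cRPKM + 1) scale the difference in *sap18* was -0.57, and it shrank to -0.14 when the mutants were rescaled. *sap18* stood 3.51-fold above *sr45*, close in size to the 3.86-fold of its neighbour *XTH22*. In *sr45* the gene ranked 450 and 451 of 454, near the bottom of the table, where 1 library lay under 1 cRPKM.

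**Figure D3:**
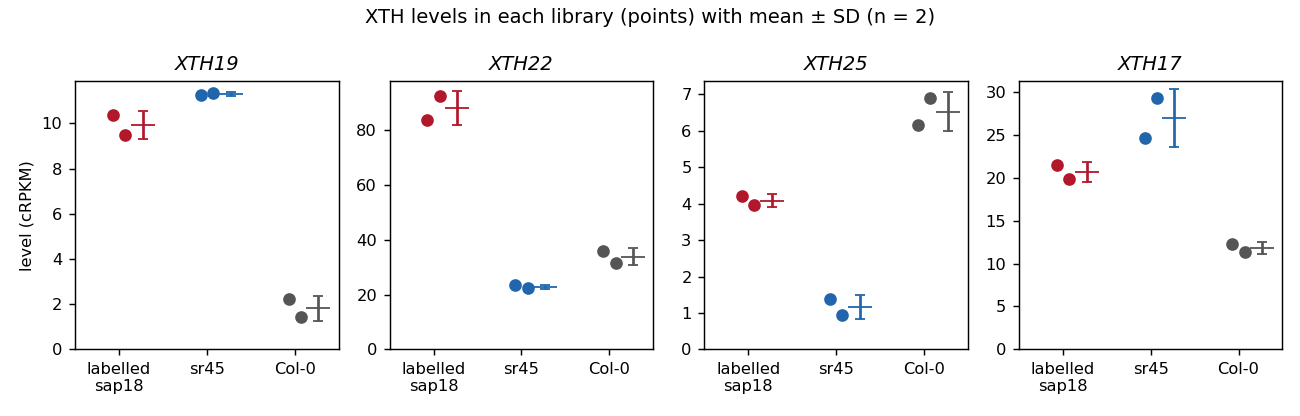
Level in cRPKM of XTH19, XTH22, XTH25 and XTH17 in each library, with a point for each of the 2 libraries labelled sap18, sr45 and Col-0 and, beside them, their mean with an error bar of 1 SD. XTH19 and XTH17 are lowest in Col-0, XTH22 is highest in sap18 and XTH25 is highest in Col-0.

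The order of the levels thus differed for each member. It was *sr45*, *sap18* and Col-0 from high to low for *XTH19*, *sap18*, Col-0 and *sr45* for *XTH22*, and Col-0, *sap18* and *sr45* for *XTH25*. Rescaling each mutant by the genes that met the fold criterion in the other mutant alone raised the levels by 0.52 in *sap18* and 0.17 in *sr45* on the log2 scale, and among these orders it changed only that of *sap18* and *sr45* for *XTH19*. It used 145 genes for *sap18*, *XTH25* among them, and 46 for *sr45*, *XTH22* among them. Rescaling takes these genes as unchanged, which was not tested, so a smaller change that both mutants share is taken out with it. No 2 genotypes overlapped in any of the 3 genes. With 2 libraries on each side this was common in the table, where 90.5% of genes did not overlap between *sap18* and Col-0, 91.6% between *sr45* and Col-0 and 87.7% between *sap18* and *sr45*. By mean level, 138 of the 454 genes were higher in both mutants as *XTH19* was, 36 were higher in *sap18* and lower in *sr45* as *XTH22* was, and 264 were lower in both as *XTH25* was. The remaining 16, none of them an *XTH*, were lower in *sap18* and higher in *sr45*.

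A stricter call, the fold criterion, asks for all 4 ratios between single libraries to reach 2. It also asks that 1 group exceed 5 cRPKM in both libraries. This follows the wording of the study's methods but does not give the study's counts of called genes. The criterion was met by 90 genes in *sap18* and 189 in *sr45*, against 186 and 357 by the ratio of means. The counts reported by the study lie closer to those by the ratio of means. A gene that fails the criterion here may therefore be among the study's calls. *XTH19* met the criterion upwards in both mutants, *XTH22* upwards in *sap18* and *XTH25* downwards in *sr45*. Neither *XTH22* in *sr45* nor *XTH25* in *sap18* met the criterion. In the table the criterion was met upwards by 9.25% of genes in *sap18* and 11.5% in *sr45*, and downwards by 10.6% in *sap18* and 30.2% in *sr45*. Since the members were selected on these contrasts, nothing is read from that comparison. Nearest to the threshold among the 4 genes stood *XTH22* in *sap18*, with a lowest ratio of 2.33, and *XTH17* in *sr45*, with a lowest ratio of 1.99. By the ratio of means *XTH17* met the criterion upwards in *sr45*, and after rescaling in both mutants.

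*XTH17*, the closest measured relative of *XTH19*, was higher in both mutants as well. Its level was 21.5 and 19.8 cRPKM in the libraries labelled *sap18*, 24.6 and 29.3 cRPKM in *sr45* and 12.3 and 11.3 cRPKM in Col-0. On the log2(cRPKM + 1) scale it rose by 0.75 ± 0.16 (SE) in *sap18*, with an adjusted p of 0.0037 in limma, and by 1.12 ± 0.16 in *sr45*, with an adjusted p of 0.00037. Such rises were common, as 29.3% of all genes in the table passed upwards in *sap18* and 27.5% in *sr45*. The difference of -0.37 ± 0.16 between *sap18* and *sr45* did not pass, with an adjusted p of 0.078. At 1.74-fold in *sap18* and 2.28-fold in *sr45*, its ratios to Col-0 were smaller than those of *XTH19*, whose Col-0 level was lower. Of windows of 50 bases, shorter than the reads, 21 of 1286 in the *XTH19* transcript recur exactly in *XTH17* or *XTH18*. In the *XTH17* transcript 2 of 1169 recur exactly in *XTH19*. A window with any mismatch counted as not shared, and the assignment of reads between these genes was not tested. For *XTH22* and *XTH25* the number of shared windows was 0.

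Ratios within a library do not depend on a factor that scales it as a whole, though they can depend on quantile normalisation, which works on ranks. The *XTH22* level was 19.9 and 23.4 times that of *XTH25* in *sap18* and 16.8 and 23.9 times in *sr45*, against 5.85 and 4.58 times in Col-0. The tandem pair was therefore further apart in both mutants, in *sap18* with more *XTH22* and less *XTH25* and in *sr45* with less of both genes. The *XTH17* level was 2.07 and 2.09 times that of *XTH19* in *sap18* and 2.19 and 2.58 times in *sr45*, against 5.57 and 7.89 times in Col-0. *XTH19* stood at 2.46 and 2.40 times *XTH25* in *sap18* and at 8.06 and 12.2 times in *sr45*, against 0.360 and 0.208 times in Col-0, so that the order of these genes was turned round in both mutants.

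The summed level of the 4 genes was 120 and 126 cRPKM in *sap18*, 60.6 and 63.9 cRPKM in *sr45* and 56.7 and 51.2 cRPKM in Col-0. *XTH22* made up 69.9% and 73.6% of that sum in *sap18*, 38.6% and 34.9% in *sr45* and 63.5% and 61.6% in Col-0. In *sr45* the sum stood slightly above Col-0 but held more *XTH17* and *XTH19* and less *XTH22*.

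The genes with the pattern most like each member were found by Euclidean distance over the 6 libraries, on log2(cRPKM + 1) after subtracting the Col-0 mean. *XTH22* had close matches, with *AGP17* at 0.191, *WRKY70* at 0.409 and *EXL5* at 0.546, while the median distance of all genes was 2.86. *AGP17* encodes an arabinogalactan protein of the wall, *WRKY70* a transcription factor of salicylate-dependent defence and *EXL5* a relative of EXORDIUM. *AGP17* was at 63.0 and 62.7 cRPKM in *sap18*, 17.3 and 17.3 cRPKM in *sr45* and 28.4 and 22.4 cRPKM in Col-0. For *WRKY70* the means were 18.7 cRPKM in *sap18*, 5.95 cRPKM in *sr45* and 7.77 cRPKM in Col-0.

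*XTH25* lay nearest to *VSP1* at 0.386, *RGLG4* at 0.495 and *TOM2B* at 0.598, against a median distance of 1.45. *VSP1* encodes a vegetative storage protein known for its induction by jasmonate, and *RGLG4* a RING-type ubiquitin ligase. *VSP1* was at 19.4 and 19.8 cRPKM in *sap18*, 9.70 and 5.26 cRPKM in *sr45* and 25.1 and 28.8 cRPKM in Col-0. *XTH19* had no match as near. *PUMP4*, a mitochondrial carrier, stood at 0.987, AT3G22235 at 1.29 and AT1G52100 at 1.42, against a median of 5.59. *PUMP4* was at 10.8 and 8.63 cRPKM in *sap18*, 6.84 and 5.57 cRPKM in *sr45* and 1.45 and 1.59 cRPKM in Col-0.

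The other *XTH* genes were not among the nearest of any member. *XTH17* took rank 32 by distance from *XTH19* and rank 149 from *XTH22*. *XTH25*, the neighbour of *XTH22* on the chromosome, took rank 313 from it.

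**Figure D4:**
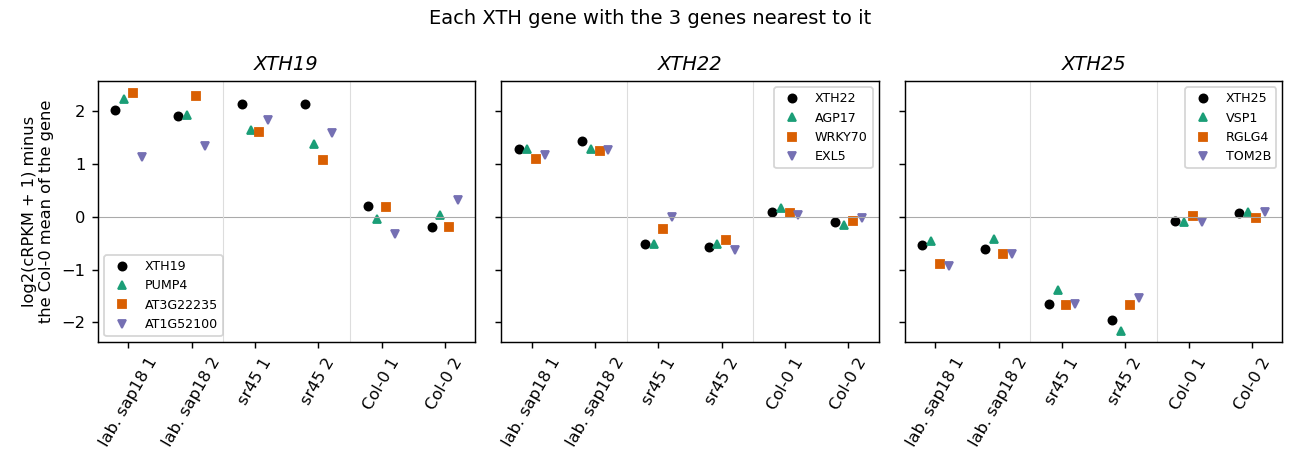
Difference from the Col-0 mean on the log2(cRPKM + 1) scale in each of the 6 libraries for XTH19, XTH22 and XTH25, each beside the 3 genes at the smallest distance from it. AGP17 overlies XTH22 most closely, at a distance of 0.191, and the nearest gene to XTH19 stands at 0.987.

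Adjacent pairs of protein-coding genes that were both in the table numbered 18. The signs of the difference were the same in 13 pairs in *sap18* and in 15 pairs in *sr45*, both against Col-0. *XTH22* and *XTH25* were one of the 5 pairs with opposite signs in *sap18* and one of the 15 with the same sign in *sr45*. The mutants share the Col-0 libraries, so these counts are not independent. Shared signs are also common without adjacency, since the median difference of all genes was -0.38 in *sap18* and -0.96 in *sr45*. Pairs of unlinked genes were not counted, so no effect of adjacency is read from these counts.

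Other genes of the primary wall were compared by limma, with adjusted p-values over all 454 genes. In the table as a whole 29.3% of genes rose and 45.8% fell in *sap18*, 27.5% rose and 61.0% fell in *sr45*, and between the mutants 44.3% were higher and 14.1% lower in *sap18* than in *sr45*. The median differences on the log2 scale were -0.38, -0.96 and 0.40 in the same order of comparisons. For pectin methylesterases and their inhibitors, and for xyloglucan synthesis and trimming, 0 of 19 and 0 of 10 listed genes were in the table, so neither the making nor the trimming of the XTH substrate could be followed.

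Expansins loosen the wall without cutting it, and 3 of 37 were in the table. In *sap18* 2 of the 3 rose and 0 fell, and in *sr45* 2 rose and 1 fell. *EXPA11* averaged 41.0 cRPKM in *sap18*, 52.2 cRPKM in *sr45* and 25.0 cRPKM in Col-0, and *EXPA3* averaged 74.8, 104.6 and 52.0 cRPKM in that order of genotypes. Like *XTH19*, both were highest in *sr45*, though for *EXPA11* the difference of -0.34 ± 0.15 (SE) between *sap18* and *sr45* did not pass, with an adjusted p of 0.080 in limma, and was near 0 after rescaling. For *EXPA3* it was -0.48 with an adjusted p of 0.026 in limma, a call lost without *sap18* replicate 1 (0.15), *sap18* replicate 2 (0.089) or *sr45* replicate 1 (0.078) and after rescaling (0.44), with the adjusted p in parentheses. *EXLA1*, an expansin-like protein, averaged 20.9 cRPKM in *sap18*, 10.1 cRPKM in *sr45* and 24.5 cRPKM in Col-0, the order seen in *XTH25*, but its difference from Col-0 in *sap18* did not pass and changed sign after rescaling. The count in *sap18* was 1 without *sap18* replicate 1, without *sap18* replicate 2 and without Col-0 replicate 1.

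Among 61 listed wall glycoproteins, 4 were in the table, all of which rose in *sap18*, while 2 rose and 1 fell in *sr45*. *AGP17* and *LRX3*, a leucine-rich repeat extensin, were highest in *sap18*, as *XTH22* was. *LRX3* averaged 61.7 ± 9.60 cRPKM in *sap18*, 18.9 ± 6.30 cRPKM in *sr45* and 25.6 ± 2.39 cRPKM in Col-0 (SD, n = 2 each). For *LRX3* the difference of -0.45 ± 0.24 (SE) between *sr45* and Col-0 on the log2 scale did not pass, with an adjusted p of 0.10 in limma. Both genes were higher in *sap18* than in *sr45*, by 1.81 ± 0.16 (SE) for *AGP17* and by 1.68 ± 0.24 for *LRX3* on the log2 scale, with adjusted p of 0.00013 and 0.00104 in limma. *LRX5* averaged 25.7 cRPKM in *sap18*, 22.7 cRPKM in *sr45* and 11.3 cRPKM in Col-0. The extensin *ATEXT4* had the largest SDs of the 4 in cRPKM, at 84.5 ± 27.5 cRPKM in *sap18*, 106 ± 20.6 cRPKM in *sr45* and 49.5 ± 5.60 cRPKM in Col-0 (SD, n = 2 each). On the log2 scale the SE of a difference was largest for *LRX5*, at 0.28 against 0.25 for *ATEXT4*. In *sap18* the count of 4 was 2 without *sap18* replicate 2 or Col-0 replicate 2 and 3 without Col-0 replicate 1. In *sr45* the counts were 1 higher and 2 lower without *sr45* replicate 1, 2 higher and 0 lower without Col-0 replicate 1 or after rescaling, and 1 higher and 1 lower without Col-0 replicate 2.

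The single listed cellulase of family GH9 in the table, *AtGH9B13*, averaged 26.6 cRPKM in *sap18*, 19.6 cRPKM in *sr45* and 12.7 cRPKM in Col-0 and rose in both mutants. Of class III peroxidases, which cross-link wall polymers, 4 of the 17 matched by name were in the table, and 3 rose in *sap18* and 2 in *sr45*. *PER33* was the one that differed most from the others, with 12.7 cRPKM in *sap18*, 31.5 cRPKM in *sr45* and 14.1 cRPKM in Col-0. *PER22* was at 12.6 and 15.3 cRPKM in *sap18*, 7.01 and 8.71 cRPKM in *sr45* and 4.18 and 6.87 cRPKM in Col-0. The count in *sr45* was 1 without *sr45* replicate 1, and 3 with a replicate block or after rescaling.

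**Figure D5:**
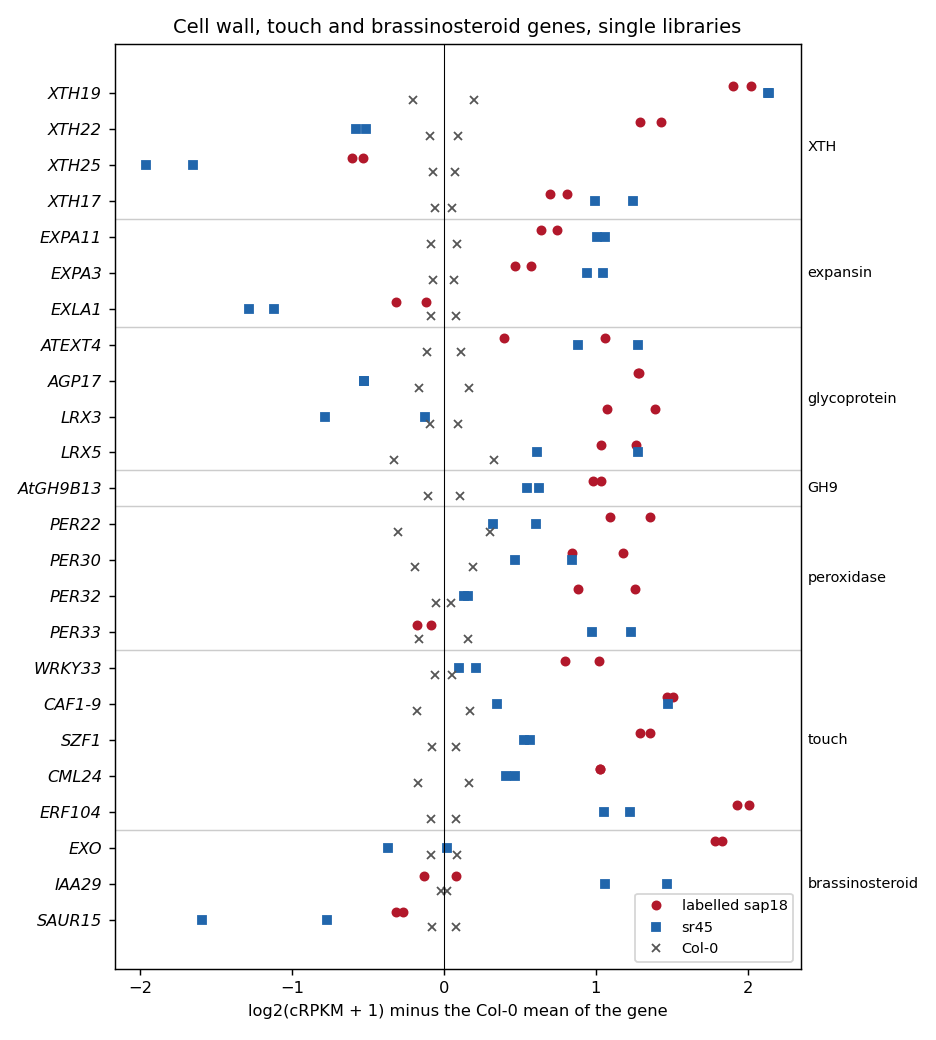
Difference of each library from the Col-0 mean of the gene, on the log2(cRPKM + 1) scale, for the 4 XTH genes and the measured genes of the wall, touch and brassinosteroid lists. Circles are the libraries labelled sap18, squares sr45 and crosses Col-0. AGP17, LRX3 and EXO lie near XTH22, higher in sap18 than in sr45.

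*XTH22* is a touch gene, and 5 of 16 other listed touch- or handling-induced genes were in the table. All 5 rose in *sap18*, 4 of them rose in *sr45*, and 4 were higher in *sap18* than in *sr45*. Over all genes of the table, 29.3% rose in *sap18*, 27.5% rose in *sr45* and 44.3% were higher in *sap18* than in *sr45*. *ERF104*, an ethylene response factor, was at 10.3 and 9.71 cRPKM in *sap18*, 5.56 and 4.81 cRPKM in *sr45* and 1.65 and 1.97 cRPKM in Col-0. *SZF1*, a zinc finger gene, averaged 19.5 cRPKM in *sap18*, 10.9 cRPKM in *sr45* and 7.19 cRPKM in Col-0, and *CAF1-9*, a deadenylase subunit, averaged 10.4, 7.25 and 3.10 cRPKM in that order of genotypes. The *CAF1-9* mean in *sr45* rests on libraries far apart, at 10.3 and 4.20 cRPKM. Without 1 library its log2 difference between *sr45* and Col-0 ranged over 0.35 to 1.47. *CML24*, the calmodulin-like gene also named *TCH2*, averaged 45.2 cRPKM in *sap18*, 29.7 cRPKM in *sr45* and 21.8 cRPKM in Col-0. All 4 had *sr45* above Col-0, whereas *XTH22* in *sr45* lay below it. The count of 4 in *sr45* was 2 without *sr45* replicate 1 or Col-0 replicate 1 and 3 without any 1 of the other 4 libraries. Between the mutants it was 3 without *sap18* replicate 1, 2 without *sap18* replicate 2 and 5 after rescaling. Whether handling at harvest differed between genotypes was not tested.

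Of 11 listed genes of brassinosteroid synthesis and response, 3 were in the table, and they did not move together. *EXO*, a brassinosteroid-induced gene of cell expansion, was at 50.9 and 52.3 cRPKM in *sap18*, 14.3 and 10.6 cRPKM in *sr45* and 14.9 and 13.2 cRPKM in Col-0. It rose by 1.81 ± 0.18 (SE) on the log2 scale in *sap18*, with an adjusted p of 0.00022 in limma, and its difference of -0.17 in *sr45* did not pass, with an adjusted p of 0.38. *IAA29* averaged 6.65 cRPKM in *sap18*, 17.9 cRPKM in *sr45* and 6.77 cRPKM in Col-0, and *SAUR15* averaged 14.8, 7.90 and 18.4 cRPKM in that order. Both also respond to auxin. *IAA29* rose in *sr45* and *SAUR15* fell there, and neither passed in *sap18*.

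Markers of root and shoot were examined beside these levels, since *XTH17* and *XTH19* are expressed in roots. Of 17 root markers 5 were in the table, and 4 of these are the peroxidases already described, so that the lists are not separate counts. The 5 had summed levels of 59.9 and 80.8 cRPKM in *sap18*, 56.6 and 64.1 cRPKM in *sr45* and 32.8 and 41.0 cRPKM in Col-0. *IRT1*, the iron transporter of the root epidermis, varied most between replicates, at 7.11 and 15.7 cRPKM in *sap18*, 1.94 and 3.70 cRPKM in *sr45* and 1.60 and 4.05 cRPKM in Col-0. In *sap18* 4 of the 5 rose, in *sr45* 2 rose, and 0 fell in either. Over all genes of the table, 29.3% rose and 45.8% fell in *sap18*, and 27.5% rose and 61.0% fell in *sr45*. The count of rises was 3 in *sap18* without *sap18* replicate 2 or Col-0 replicate 1. In *sr45* it was 1 without *sr45* replicate 1, and 3 with a replicate block or after rescaling. Of 10 shoot markers only *LHCB4.3*, of the light-harvesting antenna, was in the table, at 79.1 cRPKM in *sap18*, 52.1 cRPKM in *sr45* and 38.2 cRPKM in Col-0. It rose in both mutants, and its call in *sr45* was lost without *sr45* replicate 1 or Col-0 replicate 2. None of these 6 markers was at 0 in any library. Without *PER33*, the root markers summed to 47.6 and 67.6 cRPKM in *sap18*, 28.0 and 29.9 cRPKM in *sr45* and 20.4 and 25.1 cRPKM in Col-0, so that most of the gain in *sr45* lay in that gene. The part of root RNA in the levels of *XTH17* and *XTH19* was not tested.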

How the data were processed

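mRNA levels were measured in 6 libraries of whole seedlings, grouped by the labels into *sap18*, *sr45* and Col-0. The authors mapped reads with vast-tools to TAIR10, applied quantile normalisation and deposited cRPKM values, an RPKM that divides by mappable positions. The deposited table holds the genes listed as changed. Columns left without a sample numbered 0, and splicing was not analysed here.

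To log2(cRPKM + 1), 1 model of all genotypes was fitted with limma 3.58.1 under R 4.3.3, with Benjamini-Hochberg adjustment at 0.05 over the 454 genes. Because the table was selected for change, these p-values describe its genes and not a transcriptome. The members and gene lists were chosen with earlier results of these data known. Named were all measured *XTH* genes, the 3 genes nearest each member by distance and up to 4 genes a list, those with the largest difference in any contrast. The pathway lists leave out the members.

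Coordinates, coding sequences and the 250-base promoter windows are from RefSeq on TAIR10.1, in which 450 of 454 loci were found. Proteins, translated from these, were aligned with Biopython 1.88. TATAAA was added to the motifs after the sequences were seen. Alternatives were another pseudocount, a mean-variance trend, a low-value filter, rescaled mutants, a replicate block, the ratio of means for the fold criterion and leaving out each library.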

Additional observations from a re-analysis of the deposited data

How the results depend on the processing

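The directions of *XTH19*, *XTH22* and *XTH25* against Col-0, and which of them met the fold criterion, held under each alternative tried. Rescaling the mutants used the genes that met the criterion in the other mutant alone, *XTH25* among them for *sap18* and *XTH22* for *sr45*. It raised levels by 0.52 in *sap18* and 0.17 in *sr45* on the log2 scale. *XTH19* then stood at 2.44 in *sap18* and at 0.15 between *sap18* and *sr45*, where the sign was reversed. *XTH22* stood at 1.87 in *sap18*, -0.38 in *sr45* and 2.25 between them, and *XTH25* at -0.14 in *sap18* and 1.58 between them. With a pseudocount of 0.1, *XTH19* stood at 2.41 in *sap18* and 2.60 in *sr45*, and *XTH25* at -0.66, -2.41 and 1.75 between the mutants. Without 1 library, *XTH19* ranged over 1.76 to 2.16, 1.94 to 2.34 and -0.23 to -0.11, *XTH22* over 1.27 to 1.45, -0.64 to -0.45 and 1.83 to 1.97, and *XTH25* over -0.64 to -0.49, -1.96 to -1.65 and 1.08 to 1.40, in the order *sap18*, *sr45* and their difference.

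The share of rises among calls was 66.3% instead of 39.0% in *sap18*, and 87.2% instead of 75.8% between the mutants, once rescaled. Genes called between the mutants numbered 146 to 265 without 1 library, with 155 without *sap18* replicate 1 and 146 without replicate 2. The fold criterion was met by 186 genes in *sap18* and 357 in *sr45* by the ratio of means, and by 123 to 149 and 246 to 258 without 1 library, against 90 and 189. The replicate numbers share no stated batch, and deviations of same-numbered libraries correlated at 0.08, -0.03 and -0.11. With a replicate block 341, 405 and 261 genes were called, against 341, 402 and 265.

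Signs near 0 were reversed by rescaling for *EXPA11* between the mutants (0.00043) and, in *sap18*, for *EXLA1* (0.28), *PER33* (0.35), *IAA29* (0.43), *SAUR15* (0.20) and *VSP1* (0.056). Without 1 library, *LRX5* ranged over -0.13 to 0.54 between the mutants. In *sr45*, *EXO* ranged over -0.37 to 0.023, *IRT1* had -0.30 without *sr45* replicate 2 and -0.44 without Col-0 replicate 1, and *SAP18* ranged over -0.083 to 0.23. In *sap18*, *PER33* ranged over -0.29 to 0.029, *IAA29* had 0.080 without *sap18* replicate 2, and *SR45* had -0.02 without *sap18* replicate 2 and -0.070 without Col-0 replicate 2. None of these differences passed the threshold as deposited, and the cause was not tested. The low-value filter removed 0 genes. With 2 libraries a genotype and unknown depth, levels near 1 cRPKM, as of *XTH25* in *sr45*, are the least certain.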
